A study of Homo sapiens with 12 samples.

Results

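Amino acid transporters of the solute carrier (SLC) superfamily were followed across heat exposure and across a microRNA inhibitor in macrophage-like THP-1 cells. Members were taken by gene symbol alone, as every gene of families SLC1A, SLC3A, SLC6A, SLC7A, SLC36A, SLC38A and SLC43A with a probe set assigned to it and to no other gene, and each was represented by its probe set with the highest mean over the 12 arrays. This gave 59 members of 18132 genes measured. By family, 7 were in SLC1A, 2 in SLC3A, 18 in SLC6A, 13 in SLC7A, 4 in SLC36A, 12 in SLC38A and 3 in SLC43A. The symbols also take in carriers of related substrates, such as creatine (SLC6A8), taurine (SLC6A6) and the monoamine carriers SLC6A2, SLC6A3 and SLC6A4.

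THP-1 is a human monocytic leukaemia cell line, so all samples share 1 origin, and it was driven towards a macrophage-like state with the phorbol ester PMA at 100 ng/ml for 48 h. The first experiment set cells at 40 °C (3 arrays), a fever-range temperature, against cells at 37 °C (3 arrays). The second experiment set cells given an inhibitor of a microRNA that the labels call a thermomiR (3 arrays) against control cells (3 arrays). In this experiment the protocol has both groups differentiated at 40 °C, nucleofected with a hairpin microRNA inhibitor or a control together with a GFP plasmid, and sorted for GFP 24 h later, so its control is a 40 °C group. The labels name the inhibitor group as siThermomir and its controls as WT, and they do not say which microRNA was inhibited on these arrays, whether the controls received the non-human control inhibitor, or which of the harvests at 2, 8 and 24 h of 40 °C was used. No label says that the 3 arrays of a group came from separate cultures, so the tests below weigh differences against a spread that may be technical. RNA was measured on Affymetrix PrimeView arrays, and all values are the deposited log2 signals, in which a difference of 1 is a 2-fold change in signal. Signals of different probe sets are not on a common scale, so each gene is compared between groups and not with other genes.

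Amino acids cross membranes through carriers with different couplings. The SLC7 light chains that pair with the glycoprotein SLC3A2 (4F2hc, CD98) exchange an amino acid on one side for an amino acid on the other, the SLC1 and SLC38 carriers use the sodium gradient to take up glutamate, glutamine and small neutral amino acids, and several SLC36 and SLC38 members act at the lysosome, where amino acid supply is sensed by the kinase complex mTORC1. In macrophages, arginine carriers feed nitric oxide synthase and arginase, cystine uptake by SLC7A11 feeds glutathione, and many carrier genes are targets of ATF4, the transcription factor of the amino acid response, which binds CCAAT-enhancer-binding protein/ATF response elements.

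Signals of the 12 arrays had similar medians, 5.72 to 5.87 on the log2 scale, and Pearson's r between replicate arrays, over all probe sets, was 0.9939 to 0.9984. All 9 monocyte and macrophage markers with a probe set passed the filter on low signal. Their mean log2 signal was 9.41 to 9.53 per array at 40 °C and 9.27 to 9.29 at 37 °C, and it was 8.45 to 8.61 with the inhibitor and 9.18 to 9.24 in its controls. At 40 °C 6 of the 9 were called higher and 2 lower, while with the inhibitor 1 was called higher and 6 lower, LYZ by 5.08-fold. Of all genes tested, 21.6% were called higher and 17.7% lower at 40 °C, and 25.6% higher and 19.6% lower with the inhibitor. Of the lymphocyte markers, NKG7 was called higher with the inhibitor, by 1.97-fold, and of the fibroblast and epithelial markers KRT8 was, by 1.21-fold. No other marker of these lists or of the erythroid list was called in either comparison. The poly-A control transcripts, which are added to the RNA during labelling, also differed in the second experiment: their mean log2 signal was 5.83 ± 0.27 with the inhibitor and 7.07 ± 0.35 in its controls (SD, n = 3 each), and it was 7.77 ± 0.04 at 40 °C and 7.68 ± 0.04 at 37 °C. The 18S ribosomal RNA signal was 9.77 ± 0.33 with the inhibitor and 12.75 ± 0.05 in its controls, and it averaged 10.71 at 40 °C and 10.88 at 37 °C. The part of these shifts in the results below was not tested beyond a fit with the control-transcript signal as a covariate. In a bulk sample, fewer cells of a type and less RNA per cell cannot be told apart.

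Exposure to 40 °C changed 20 of the 43 members that passed the filter on low signal: 13 were higher and 7 lower than at 37 °C. The test was limma with Benjamini-Hochberg adjustment over all 13909 genes tested, with a threshold of 0.05 on the adjusted p. Of all genes tested, 21.6% were called higher and 17.7% lower by the same rule, and 46.5% of the tested members were called in either direction, against 39.3% of all genes tested. The largest increases were those of SLC38A6 and SLC1A3, both over 2-fold, and the largest decrease was that of SLC36A4, also over 2-fold, a size that 1.01% of all genes tested reached. A change of at least 1.5-fold was called for 7 members, 3 higher and 4 lower, where 5.46% of all genes tested had one. The median difference of the 43 tested members was 0.01, the same as that of all genes tested to 2 decimals, while the median size of the difference, whatever its sign, was 0.17 in tested members and 0.13 in all genes tested. In 22 of the 43 the 3 arrays at 40 °C did not overlap those at 37 °C, and 49.5% of all genes tested showed this. With the poly-A control signal as a covariate, which correlated with the group at r = 0.81, all 20 members kept their sign and 11 stayed under the threshold, 6 higher and 5 lower.

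**Figure D1:**
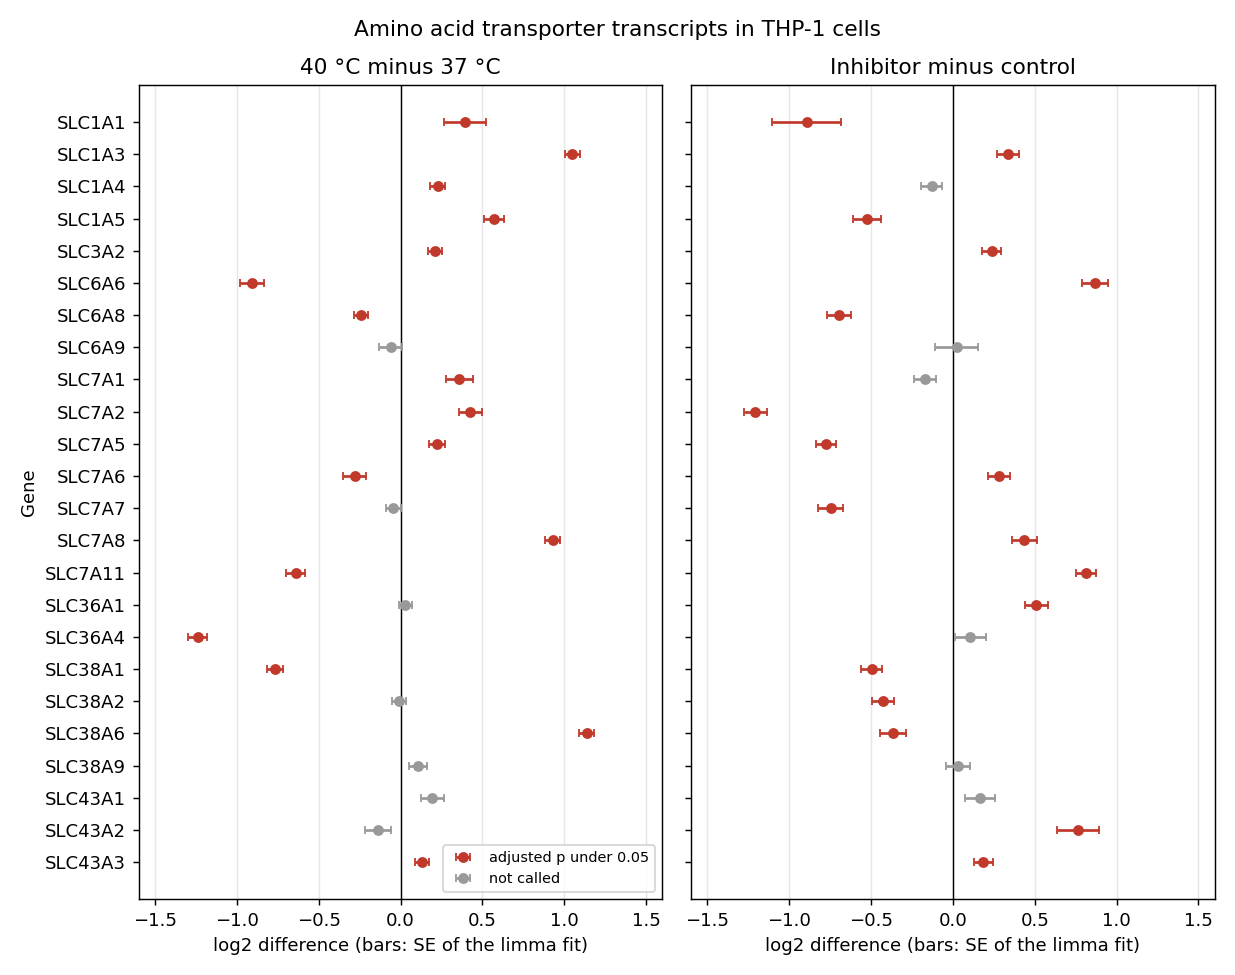
Log2 differences (x axis) with their standard errors for 24 members (y axis), those called with at least a 1.5-fold change and a set of well-studied carriers, with 40 °C minus 37 °C on the left and inhibitor minus control on the right, from limma fits of 3 arrays per group. SLC36A4 lies farthest to the left at 40 °C and SLC7A2 farthest to the left with the inhibitor.

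Among the sodium-coupled glutamate and neutral amino acid carriers of SLC1, 4 of the 6 tested members rose at 40 °C and none fell. Of all genes tested, 21.6% rose and 17.7% fell. SLC1A3 (EAAT1), which takes up glutamate and aspartate, read 9.07, 8.96 and 9.01 at 40 °C, against 7.93, 7.97 and 7.99 at 37 °C. The groups lay far apart, with a difference of 1.05 ± 0.05 (SE), or 2.07-fold (adjusted p = 6.72e-06). SLC1A5 (ASCT2), an exchanger of glutamine and other neutral amino acids, read 8.21, 8.32 and 8.14 at 40 °C and 7.64, 7.72 and 7.59 at 37 °C, again without overlap. Its difference was 0.57 ± 0.06, or 1.49-fold (adjusted p = 0.000236). The closely related ASCT1, encoded by SLC1A4, read 9.82, 9.74 and 9.84 at 40 °C and 9.58, 9.59 and 9.55 at 37 °C. It was 1.17-fold higher (adjusted p = 0.00568), and its 6 probe sets all read higher at 40 °C, by 0.17 to 0.92. SLC1A1 (EAAT3), the second glutamate carrier that changed, read 5.53, 5.08 and 5.05 at 40 °C and 4.76, 4.97 and 4.75 at 37 °C, so that the groups did not overlap but its replicates at 40 °C spread widely. Its 1.31-fold increase (adjusted p = 0.042) was no longer called without replicate 1 at 40 °C (adjusted p = 0.0528), replicate 1 at 37 °C (adjusted p = 0.115) or replicate 3 at 37 °C (adjusted p = 0.114). The other probe set of SLC1A1, at 0.08, was not called.

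A promoter window is shown for each of SLC1A3, SLC1A4 and SLC1A5, and for the arginine carrier SLC7A1, which also rose at 40 °C. Each window was chosen because it holds the core of a CCAAT-enhancer-binding protein/ATF response element, TGATGNAA (reverse complement TTNCATCA), on 1 of its strands. Of the 59 members, 45 had a RefSeq promoter window (300 bases, 250 before and 50 after a transcript start, GRCh38.p14), and 6 of these 45 (13.3%) had the element in at least 1 window, against 4.46% of 27305 genes. Counted by window, it was in 6 of the 67 windows of members, against 3.62% of 35116 windows. The 6 members were SLC1A3, SLC1A4, SLC1A5, SLC3A2, SLC7A1 and SLC38A1, of which the first 5 were higher at 40 °C and SLC38A1 was lower. Of all tested members 30.2% were higher at 40 °C, and of all genes tested 21.6%. With the inhibitor SLC1A3 and SLC3A2 were called higher, SLC1A5 and SLC38A1 lower, and SLC1A4 and SLC7A1 were not called. The matching windows of SLC3A2 and SLC38A1 are not shown. The 4 windows shown, 1 for each gene, were chosen after the values were seen, and a match describes letters only and not a bound site. SLC1A3 has 3 windows, SLC1A4 has 2 and SLC1A5 has 3, and in each gene the windows not shown have no match. The window shown for SLC1A5 belongs to the most downstream of its starts. The windows lie at chr5:36596338-36596637 (plus strand, the match 220 bases before the start) for SLC1A3, chr2:64989149-64989448 (plus strand, 7 bases before the start, read on the opposite strand) for SLC1A4, chr19:46784765-46785064 (minus strand, 97 bases before the start) for SLC1A5 and chr13:29595639-29595938 (minus strand, at base 8 after the start) for SLC7A1. Each is written 5′ to 3′ in the direction of the gene, with the match in capitals.
SLC1A3: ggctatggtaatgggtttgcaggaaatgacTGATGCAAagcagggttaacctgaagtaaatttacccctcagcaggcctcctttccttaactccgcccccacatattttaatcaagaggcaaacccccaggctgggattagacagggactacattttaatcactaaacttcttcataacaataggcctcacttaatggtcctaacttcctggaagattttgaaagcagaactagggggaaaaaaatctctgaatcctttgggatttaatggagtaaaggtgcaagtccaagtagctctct
SLC1A4: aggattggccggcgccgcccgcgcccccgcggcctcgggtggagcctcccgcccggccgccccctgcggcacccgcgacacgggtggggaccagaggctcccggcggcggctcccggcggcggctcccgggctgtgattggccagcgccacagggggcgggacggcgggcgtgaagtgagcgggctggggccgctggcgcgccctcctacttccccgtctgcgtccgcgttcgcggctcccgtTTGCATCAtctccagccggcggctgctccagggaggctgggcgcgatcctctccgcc
SLC1A5: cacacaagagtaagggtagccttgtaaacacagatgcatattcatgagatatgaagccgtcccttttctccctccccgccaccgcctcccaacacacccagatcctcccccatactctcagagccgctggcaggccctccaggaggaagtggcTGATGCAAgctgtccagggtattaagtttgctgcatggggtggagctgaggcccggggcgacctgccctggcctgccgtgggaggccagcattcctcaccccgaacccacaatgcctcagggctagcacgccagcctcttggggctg
SLC7A1: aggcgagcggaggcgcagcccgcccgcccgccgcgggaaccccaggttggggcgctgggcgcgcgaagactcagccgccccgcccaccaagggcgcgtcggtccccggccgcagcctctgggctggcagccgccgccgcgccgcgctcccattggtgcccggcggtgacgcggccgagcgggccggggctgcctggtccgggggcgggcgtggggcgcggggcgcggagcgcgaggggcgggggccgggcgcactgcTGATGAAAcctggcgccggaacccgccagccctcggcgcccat

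The heavy chain and its light chains did not move as a block at 40 °C. SLC3A2, the shared heavy chain, read 9.90, 9.98 and 9.90 at 40 °C and 9.72, 9.73 and 9.70 at 37 °C. The increase was small, 0.21 ± 0.04 or 1.16-fold (adjusted p = 0.00688), and all 7 of its probe sets were called higher. SLC7A8 (LAT2), a light chain for neutral amino acids, read 8.51, 8.55 and 8.53 at 40 °C, against 7.64, 7.61 and 7.55 at 37 °C. This was the largest increase in the family, 1.91-fold (adjusted p = 7.87e-06), and it rests on 1 probe set, since its fainter probe sets were not called. SLC7A5 (LAT1), the leucine exchanger, read 8.15, 8.05 and 8.18 at 40 °C and 7.91, 7.88 and 7.92 at 37 °C. It was 1.17-fold higher (adjusted p = 0.00836), but its other probe set differed by -0.06 and was not called. SLC7A11 (xCT), which imports cystine in exchange for glutamate, was lower: its arrays read 8.34, 8.40 and 8.39 at 40 °C and 9.13, 8.96 and 8.96 at 37 °C. The fall was 1.56-fold (adjusted p = 0.000115), with no overlap between the groups. SLC7A6 (y+LAT2), an exchanger of cationic for neutral amino acids, read 6.48, 6.55 and 6.51 at 40 °C and 6.85, 6.89 and 6.64 at 37 °C, 1.21-fold lower (adjusted p = 0.014), and this call was lost without replicate 1 at 37 °C (adjusted p = 0.0519). Its relative SLC7A7 (y+LAT1) read 10.49, 10.49 and 10.40 at 40 °C and 10.50, 10.52 and 10.49 at 37 °C, and did not pass the test, at -0.04 with a 95% interval of -0.15 to 0.06.

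**Figure D2:**
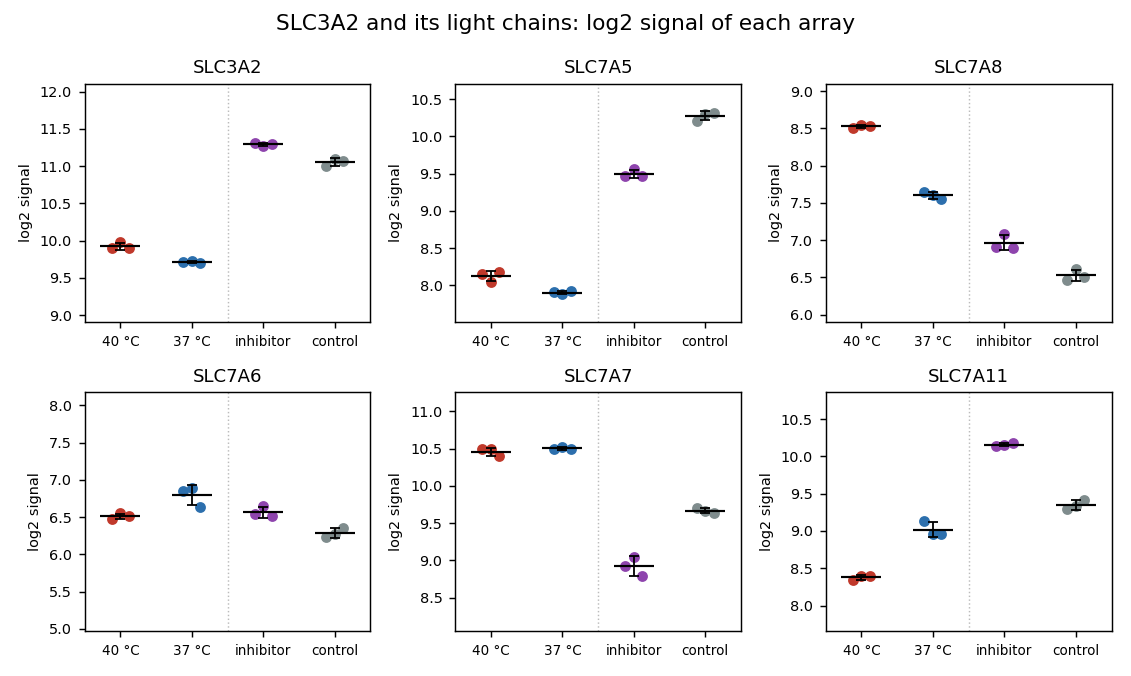
Log2 signal of each array (points, y axis) for SLC3A2 and the light chains SLC7A5, SLC7A8, SLC7A6, SLC7A7 and SLC7A11 in the 4 groups (x axis). SLC7A11 is lower at 40 °C than at 37 °C and higher with the inhibitor than in its controls, while SLC7A5 runs the other way in both.

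The arginine carriers SLC7A1 and SLC7A2 both rose at 40 °C. SLC7A2 (CAT2), the arginine carrier linked to macrophage activation, read 6.70, 6.66 and 6.57 at 40 °C and 6.34, 6.22 and 6.09 at 37 °C. Its difference was 0.43 ± 0.07, or 1.34-fold (adjusted p = 0.00201), while its other probe sets above the filter, at 0.23 and 0.07, were not called. SLC7A1 (CAT1), the widely expressed arginine carrier, read 8.82, 8.51 and 8.58 at 40 °C and 8.25, 8.34 and 8.24 at 37 °C, 1.28-fold higher (adjusted p = 0.00898). In neither gene did the groups overlap.

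In SLC38, the sodium-coupled neutral amino acid family, 3 of 9 tested members were higher and 2 lower at 40 °C. Of all genes tested, 21.6% were higher and 17.7% lower. SLC38A6 read 8.81, 8.84 and 8.85 at 40 °C, against 7.75, 7.68 and 7.66 at 37 °C. Its increase of 1.14 ± 0.05, or 2.20-fold (adjusted p = 5.76e-06), was the largest of all members and was measured by 1 probe set. SLC38A1 (SNAT1), a glutamine carrier, fell: it read 10.48, 10.35 and 10.41 at 40 °C and 11.15, 11.18 and 11.21 at 37 °C. The fall was 1.70-fold (adjusted p = 2.57e-05), and its 5 probe sets were lower by 0.63 to 0.84. SLC38A2 (SNAT2), which cells induce when amino acids run short, read 11.42, 11.46 and 11.45 at 40 °C and 11.44, 11.48 and 11.44 at 37 °C. These arrays overlapped, and the 95% interval of the difference was -0.11 to 0.09. SLC38A7 (SNAT7), which exports glutamine from lysosomes, was 1.21-fold higher (adjusted p = 0.00177), while its other probe sets, at -0.06 to 0.13, were not called. The glutamine carrier SLC38A5 (SNAT5) was 1.2-fold higher (adjusted p = 0.0394), a call lost on leaving out any array but replicate 2 at 37 °C (adjusted p = 0.051 to 0.127). SLC38A10 was called 1.12-fold lower (adjusted p = 0.0211), while a second probe set of this gene was called higher by 0.87, so its direction at 40 °C is uncertain. Its call was also lost without replicate 2 or 3 at 40 °C or replicate 2 or 3 at 37 °C (adjusted p = 0.0617 to 0.0686). SLC38A9, the lysosomal arginine sensor that signals to mTORC1, read 9.24, 9.23 and 9.20 at 40 °C and 9.03, 9.13 and 9.19 at 37 °C, and its difference of 0.11 ± 0.05 was not called (adjusted p = 0.154).

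SLC36A4 (PAT4), of the proton-coupled family, had the deepest fall of any member. It read 7.94, 7.78 and 7.83 at 40 °C, against 9.05, 9.17 and 9.05 at 37 °C. The difference was -1.24 ± 0.06, 2.36-fold (adjusted p = 7.87e-06), and its other probe set differed by -1.28. SLC36A1 (PAT1), a lysosomal proton-coupled carrier, read 8.76, 8.76 and 8.79 at 40 °C and 8.72, 8.74 and 8.76 at 37 °C, and did not pass the test, at 0.03 ± 0.04 (adjusted p = 0.623).

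Of the 12 tested SLC6 members, 2 fell at 40 °C and none rose, where 17.7% of all genes tested fell and 21.6% rose. SLC6A6, the taurine carrier, read 8.10, 7.90 and 7.82 at 40 °C, against 8.85, 8.89 and 8.80 at 37 °C, 1.88-fold lower (adjusted p = 7.09e-05). Of its 3 other probe sets above the filter, 1 was called lower, by 0.32 on the log2 scale. SLC6A8, the creatine carrier, read 7.43, 7.42 and 7.42 at 40 °C and 7.64, 7.66 and 7.70 at 37 °C, 1.18-fold lower (adjusted p = 0.00246); the genome holds near-identical copies of this gene, so its signal may be shared with them. The other 10 differed by -0.21 to 0.08 and were not called, among them the glycine carrier SLC6A9 (GLYT1), whose arrays overlapped at 6.28, 6.35 and 6.43 at 40 °C and 6.43, 6.29 and 6.52 at 37 °C. In SLC43, SLC43A3, known as a carrier of purine bases, read 10.55, 10.48 and 10.50 at 40 °C and 10.37, 10.37 and 10.39 at 37 °C, 1.10-fold higher (adjusted p = 0.0401), a call lost when any of the 6 arrays was left out (adjusted p = 0.0582 to 0.111). The leucine-preferring SLC43A1 (LAT3) read 7.85, 7.76 and 7.71 at 40 °C and 7.44, 7.64 and 7.66 at 37 °C, and SLC43A2 (LAT4) read 7.61, 7.48 and 7.67 at 40 °C and 7.85, 7.58 and 7.74 at 37 °C. Neither was called, at 0.19 ± 0.07 (adjusted p = 0.0624) and -0.14 ± 0.08 (adjusted p = 0.222).

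The inhibitor changed as many tested members as 40 °C did, 11 higher and 9 lower than in control cells, and 23 did not pass the test. Among all genes tested, 25.6% were called higher and 19.6% lower, 45.2% in either direction, so the share of members called, 46.5%, was near that of all genes. At least 1.5-fold changes were called for 8 members, 3 higher and 5 lower, where 12.6% of all genes tested had one. The arginine carrier SLC7A2 was the sole member past 2-fold, where 3.39% of all genes tested were, and it was lower. The median difference was 0.12 in the 43 tested members and 0.09 in all genes tested, with a median size of 0.22 in both. In 25 of the 43 the inhibitor arrays did not overlap the control arrays, and 54.1% of all genes tested showed this. When the mean signal of the poly-A control transcripts entered the fit, all 20 called members kept their sign and 1, SLC7A2, stayed under the threshold (adjusted p = 0.04995). In that fit the median standard error of the 20 was 0.19 in place of 0.07, and the covariate and the group correlated at r = -0.93.

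Among carriers of cationic amino acids, SLC7A2 and SLC7A7 fell with the inhibitor and SLC7A6 rose. SLC7A2 read 6.64, 6.69 and 6.52 with the inhibitor, against 7.87, 7.74 and 7.86 in controls. The groups were more than 1 log2 unit apart, a difference of -1.21 ± 0.07 or 2.31-fold (adjusted p = 2.64e-05). SLC7A7, the arginine-exporting light chain that is mutated in lysinuric protein intolerance, read 8.93, 9.05 and 8.79 with the inhibitor and 9.70, 9.67 and 9.64 in controls. It was 1.68-fold lower (adjusted p = 0.000261). SLC7A6 was higher instead: it read 6.54, 6.65 and 6.51 with the inhibitor and 6.23, 6.27 and 6.36 in controls, 1.21-fold (adjusted p = 0.0113), while its other probe sets, at 0.07 and 0.02, were not called. SLC7A1 read 8.57, 8.70 and 8.55 with the inhibitor and 8.80, 8.71 and 8.82 in controls, and this did not pass the test (adjusted p = 0.0748), though it did without inhibitor replicate 2 (adjusted p = 0.0304). Other probe sets of SLC7A1 were called lower, at -0.65 and -0.38.

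The heavy chain and its neutral and cystine light chains also diverged. SLC3A2 read 11.31, 11.27 and 11.30 with the inhibitor and 11, 11.10 and 11.07 in controls, 1.18-fold higher (adjusted p = 0.0116), and 5 of its 7 probe sets were called higher while the other 2 differed by -0.24 and -0.27 without a call. SLC7A5 read 9.47, 9.56 and 9.47 with the inhibitor, against 10.21, 10.30 and 10.32 in controls. It fell 1.71-fold (adjusted p = 8.64e-05). SLC7A11 read 10.14, 10.16 and 10.18 with the inhibitor, against 9.29, 9.33 and 9.42 in controls. It was higher by 0.81 ± 0.06, or 1.76-fold (adjusted p = 6.13e-05), and its other probe sets were higher by 1.02 and 0.42. SLC7A8 read 6.91, 7.08 and 6.90 with the inhibitor and 6.46, 6.61 and 6.51 in controls, 1.35-fold higher (adjusted p = 0.00255), again by 1 probe set, the fainter ones not being called.

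In SLC1, SLC1A5 and SLC1A1 fell with the inhibitor and SLC1A3 was called higher. SLC1A5 read 8.33, 8.59 and 8.56 with the inhibitor, against 8.95, 9.02 and 9.09 in controls. The groups did not overlap, and the fall was 1.44-fold (adjusted p = 0.00196). SLC1A1 read 4.07, 4.08 and 4.32 with the inhibitor, below the filter on low signal of 4.48, and 5.26, 5.37 and 4.52 in controls. Its difference of -0.89 ± 0.21 was called (adjusted p = 0.0113), but a signal this low gives no exact fold, and its other probe set differed by 0.12 and was not called. SLC1A3 read 9.53, 9.60 and 9.66 with the inhibitor and 9.35, 9.17 and 9.26 in controls, 1.26-fold higher (adjusted p = 0.00621), but a second, fainter probe set of this gene was called lower by 1.02 on the log2 scale, so its direction with the inhibitor is uncertain. SLC1A4 read 9.55, 9.68 and 9.62 with the inhibitor and 9.80, 9.72 and 9.72 in controls, a difference of -0.13 ± 0.06 that was not called (adjusted p = 0.126). Of its other probe sets, 1 was called lower (-0.81) and 1 higher (0.23).

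In SLC38, 3 of the 9 tested members were lower with the inhibitor and 2 were higher. Of all genes tested, 19.6% were lower and 25.6% higher. SLC38A1 read 10.40, 10.55 and 10.48 with the inhibitor and 11.01, 10.91 and 11 in controls, 1.41-fold lower (adjusted p = 0.000761). SLC38A2 read 10.87 on all 3 inhibitor arrays, against 11.18, 11.38 and 11.33 in controls. It fell 1.34-fold (adjusted p = 0.00186), and its other probe sets differed by -1.0 and -0.65. SLC38A6 read 9.66, 9.79 and 9.53 with the inhibitor and 10.02, 9.97 and 10.08 in controls, 1.29-fold lower (adjusted p = 0.00769). SLC38A10 was 1.26-fold higher (adjusted p = 0.00528) and SLC38A5 1.23-fold higher (adjusted p = 0.00938), while SLC38A9 read 8.06, 8.22 and 8.27 with the inhibitor and 8.19, 8.10 and 8.16 in controls, which overlapped. The other probe set of SLC38A10, at 0.18, was not called.

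In SLC6, SLC36 and SLC43 together, with 12, 4 and 3 tested members, 4 members were higher with the inhibitor and 1 was lower. Of all genes tested, 25.6% were higher and 19.6% lower. SLC6A6 read 9.20, 9.42 and 9.35 with the inhibitor, against 8.48, 8.36 and 8.53 in controls, 1.82-fold higher (adjusted p = 0.000165). SLC43A2 read 8.12, 8.12 and 8.20 with the inhibitor, against 7.10, 7.64 and 7.41 in controls, 1.70-fold higher (adjusted p = 0.00234), with a wide spread among the controls. Its other probe set above the filter, at -0.01, was not called. SLC36A1 read 9.09, 9.22 and 9.20 with the inhibitor and 8.69, 8.57 and 8.72 in controls, 1.42-fold higher (adjusted p = 0.000854). Of its other probe sets, 1 was called higher, by 0.50, and the rest, at 0.12 to 0.26, were not called. In none of these 3 genes did the groups overlap. SLC6A8 went the other way, reading 8.25, 8.46 and 8.37 with the inhibitor and 9.04, 9.0 and 9.12 in controls, 1.62-fold lower (adjusted p = 0.000289). SLC43A3 read 10.08, 10.10 and 10.17 with the inhibitor and 9.98, 9.91 and 9.90 in controls. It was 1.14-fold higher (adjusted p = 0.034), with 2 further probe sets called lower by 0.23 and 0.35, and this call was lost on leaving out any array but replicate 2 with the inhibitor (adjusted p = 0.0515 to 0.12). SLC36A4, which had fallen most at 40 °C, read 8.42, 8.57 and 8.27 with the inhibitor and 8.41, 8.20 and 8.33 in controls, and was not called (adjusted p = 0.382). SLC43A1 at 7.48, 7.69 and 7.37 with the inhibitor and 7.40, 7.26 and 7.38 in controls, and SLC6A9 at 7.12, 6.76 and 7.12 with the inhibitor and 6.75, 7.09 and 7.09 in controls, overlapped and were not called either.

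The 2 experiments have separate controls, so their calls can be set side by side, each direction being relative to its own control. The inhibitor controls, also at 40 °C, did not read like the 40 °C cells of the first experiment. SLC7A5 averaged 10.28 in these controls and 8.13 in the 40 °C cells, and SLC38A6 10.02 and 8.83. SLC7A6 was lower instead, at 6.29 and 6.51, as was SLC1A1, at 5.05 and 5.22. Of the 43 tested members, 16 (37.2%) were called in both comparisons, against 22.7% of all genes tested. The directions were opposite in 9 members, 20.9%, against 8.99% of all genes tested, and equal in 7 members, 16.3%, against 13.8% of all genes tested. SLC1A1, SLC1A5, SLC7A2, SLC7A5 and SLC38A6 were higher at 40 °C and lower with the inhibitor, as were 4.95% of all genes tested. SLC6A6, SLC7A6, SLC7A11 and SLC38A10 were lower at 40 °C and higher with the inhibitor, as were 4.04% of all genes tested. SLC1A3, SLC3A2, SLC7A8, SLC38A5 and SLC43A3 were higher in both, and SLC6A8 and SLC38A1 were lower in both. These groups were formed from the calls and are given as a description. With the poly-A control signal as a covariate, limma called 0 of the 16 in both comparisons, against 96 of all 13909 genes tested, and 8 of the 16 were under an unadjusted p of 0.05 in both. In them the 40 °C calls of SLC1A1, SLC7A6, SLC38A5, SLC38A10 and SLC43A3 and the inhibitor call of SLC43A3 are those lost without single arrays, and other calls depend on the probe set. With the mean of all probe sets of a gene, the 40 °C calls of SLC1A1, SLC7A5 and SLC43A3 and the inhibitor calls of SLC1A3, SLC3A2, SLC7A6, SLC7A8 and SLC43A3 were lost, and SLC38A10 was called higher at 40 °C.

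**Figure D3:**
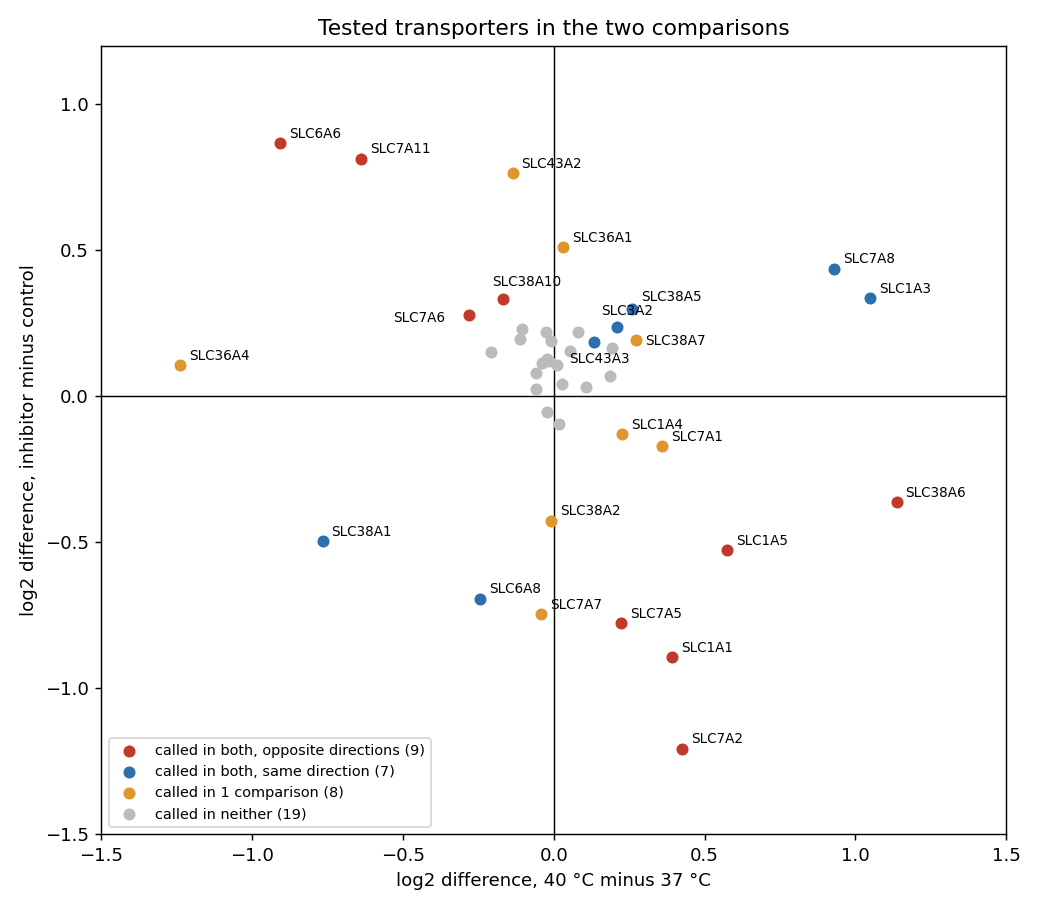
Log2 difference of 40 °C minus 37 °C (x axis) against log2 difference of inhibitor minus control (y axis) for the 43 tested members, with 9 called in opposite directions, 7 called in the same direction, 8 called in 1 comparison and 19 in neither. SLC38A6 and SLC7A2 lie in the quadrant higher at 40 °C and lower with the inhibitor, and SLC6A6 and SLC7A11 in the opposite one.

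The difference between the 2 changes was tested in 1 fit of the 12 arrays, as inhibitor minus control less 40 °C minus 37 °C, and it passed for 21 of the 43 members, where 44.2% of all genes tested passed. With the poly-A control signal as a covariate it passed for 10 of the 43, and the values below are those without it. All 9 members with opposite directions were among the 21, but they had been chosen by the same 2 differences. Opposite changes add up in this value, so their passing is not a separate result. The value was 1.77 for SLC6A6 (adjusted p = 2.67e-07) and 1.45 for SLC7A11 (adjusted p = 1.02e-07). In the other direction it was -1.63 for SLC7A2 (adjusted p = 2.31e-07), -1.5 for SLC38A6 (adjusted p = 1.77e-07), -1.10 for SLC1A5 (adjusted p = 7.14e-06) and -1.0 for SLC7A5 (adjusted p = 7.76e-07). These values restate the calls that chose the members, in which SLC6A6 and SLC7A11 moved against SLC1A5, SLC7A2, SLC7A5 and SLC38A6 in both experiments. For the heavy chain SLC3A2 the value was 0.03, with a 95% interval of -0.11 to 0.17 (adjusted p = 0.764).

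**Figure D4:**
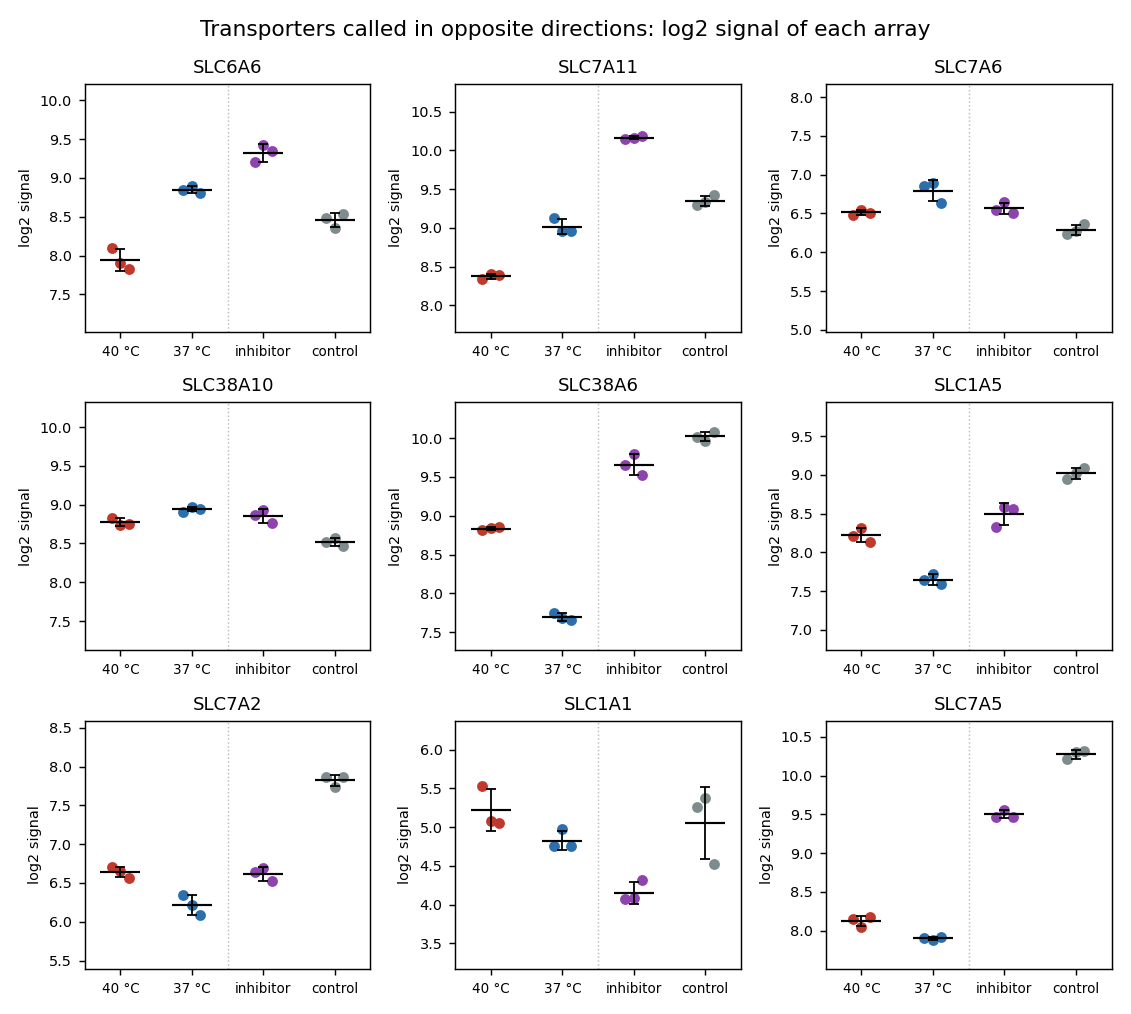
Log2 signal of each array (points, y axis, every panel spanning the same height) in the 4 groups (x axis) for the 9 members called in opposite directions by the 2 comparisons. SLC7A2 reads 6.52 to 6.69 with the inhibitor and 7.74 to 7.86 in its controls, and 6.57 to 6.70 at 40 °C and 6.09 to 6.34 at 37 °C.

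Of the 8 members called in a single comparison, 7 also passed the test of the difference between the experiments. They had been chosen by a call in a single comparison, and this test is built from the same differences. Their passing is therefore not a separate result, and the share of all such genes that passed is not given. SLC36A4 differed by 1.35 (adjusted p = 2.55e-06), SLC43A2 by 0.90 (adjusted p = 0.000783), SLC7A7 by -0.70 (adjusted p = 4.82e-05), SLC36A1 by 0.48 (adjusted p = 0.000261) and SLC38A2 by -0.42 (adjusted p = 0.000711). SLC38A7, called at 40 °C alone, was the exception, at -0.08 (adjusted p = 0.5). Among members called the same way in both, SLC7A8 rose less with the inhibitor (-0.49, adjusted p = 0.000522), SLC6A8 fell more (-0.45, adjusted p = 0.00071) and SLC38A1 fell less (0.27, adjusted p = 0.0136). SLC1A3, whose direction with the inhibitor depends on the probe set, differed by -0.71 (adjusted p = 2.41e-05).

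At least 1 of the 2 comparisons called 24 members, and 61.8% of all genes tested. The 19 tested members called in neither had differences of -0.21 to 0.19 at 40 °C and -0.09 to 0.23 with the inhibitor. Among them were carriers better known from brain, kidney and gut: the GABA carriers SLC6A11, SLC6A12 and SLC6A13, the glycine carrier SLC6A5 and the neutral amino acid carriers SLC6A18 and SLC6A19. For 4 of the 19, other and fainter probe sets were called. With the inhibitor these differed by -0.57 for SLC6A12 and by 0.25 to 0.46 for SLC6A9, and at 40 °C by -0.33 for SLC7A4 and 0.29 for SLC38A12. A further 16 members had mean signals of 2.80 to 4.44, under the filter, and were not tested. They include the monoamine carriers SLC6A2 and SLC6A4, the heavy chain SLC3A1 with its kidney light chain SLC7A9, and SLC7A3, SLC7A10 and SLC38A4. Their differences were -0.15 to 0.14 at 40 °C and -0.06 to 0.30 with the inhibitor.

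Around the carriers, genes of amino acid sensing by mTORC1 were called in both comparisons. Of 23 tested, 12 were higher and 2 lower at 40 °C, and 8 were higher and 9 lower with the inhibitor. Among all genes tested, 21.6% were higher and 17.7% lower at 40 °C, and 25.6% higher and 19.6% lower with the inhibitor. The list was chosen with earlier results of these data known. SESN2, a leucine sensor, was 1.49-fold higher at 40 °C and 3.02-fold lower with the inhibitor, FLCN, part of a Rag GTPase activator, was 1.55-fold higher and 2.63-fold lower, and the Rag GTPase RRAGD 1.6-fold higher and 1.85-fold lower. MTOR, the kinase itself, was 1.2-fold higher at 40 °C and 1.71-fold higher with the inhibitor. FNIP2 was likewise higher in both, 1.4-fold at 40 °C and 1.5-fold with the inhibitor. The list's median difference over all its genes with a probe set was 0.17 at 40 °C and -0.06 with the inhibitor, where it was 0.01 and 0.09 over all genes. ATF4 itself was not called at 40 °C (0.08, adjusted p = 0.172) and read 12.01 on average with the inhibitor and 12.71 in controls, 1.63-fold lower (adjusted p = 7.4e-05). ASNS, the asparagine synthetase gene and an ATF4 target, was 1.75-fold higher at 40 °C, with means of 8.40 at 40 °C and 7.59 at 37 °C, and 4.67-fold lower with the inhibitor, with means of 9.04 with the inhibitor and 11.26 in controls.

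Of 9 tested genes of glutathione synthesis and use, 2 were higher and 3 lower at 40 °C, and 3 were higher and 3 lower with the inhibitor. The shares of all genes tested were, as above, 21.6% higher and 17.7% lower at 40 °C and 25.6% higher and 19.6% lower with the inhibitor, for this list and the other lists. OPLAH, which recycles glutamate from oxoproline, was lower in both, 1.92-fold at 40 °C and 1.51-fold with the inhibitor. GSR, which regenerates reduced glutathione, was 1.1-fold lower at 40 °C and 1.44-fold higher with the inhibitor. CHAC1, which degrades glutathione, was 1.23-fold higher at 40 °C and 2.03-fold lower with the inhibitor. GPX4 was higher in both, 1.17-fold at 40 °C and 1.3-fold with the inhibitor, and GCLC was 1.13-fold lower at 40 °C. Amino acid carriers of other SLC families had 18 tested genes, 4 higher and 6 lower at 40 °C and 6 higher and 4 lower with the inhibitor. SLC16A10 (TAT1), an aromatic amino acid carrier, was 2.96-fold higher at 40 °C, above every member described here, and SLC15A3, a lysosomal carrier of histidine and small peptides, was 1.82-fold lower with the inhibitor. SLC17A5 (sialin) was 1.40-fold lower at 40 °C and 1.33-fold higher with the inhibitor.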

How the data were processed

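RNA of 12 samples was measured on 12 PrimeView arrays of 49395 probe sets, 102 of them controls. The deposited values are log2 signals, 1 per probe set and array; their scale was read from the values, and the authors' background correction, normalization and summarisation are not stated in the labels or headers, so array processing that differed between the 2 experiments cannot be seen. Gene names came from the platform annotation: 44994 probe sets had 1 symbol, 1832 had several and the others none. Arrays give no read depth, and the 3 arrays per group limit the precision; an exact permutation test of 3 against 3 cannot go below 0.1.

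The members and gene lists were chosen with earlier results of these data known. Genes with a mean log2 signal of at least 4.48, the 30th percentile of non-control probe sets, were tested (13909) with lmFit and eBayes of limma 3.58.1 (R 4.3.3), 1 fit per comparison and 1 joint fit of 12 arrays for the difference between comparisons, with Benjamini-Hochberg adjustment and a threshold of 0.05. Errors of differences are standard errors of the fit. Values of every array are printed for members called with at least a 1.5-fold change and for a set of well-studied carriers; SLC38A5, SLC38A7 and SLC38A10 are named as further called members. From each gene list, the genes named are among the 4 called with the smallest p in either comparison. On data simulated for 40 °C against 37 °C with 13909 genes, 36% of changes of 0.25 and 72% of changes of 0.5 on the log2 scale were recovered, and for the inhibitor comparison 4% and 64%. In these simulations 50 genes changed at each size, and 159 and 138 genes were called, against 5472 and 6288 in the data. The adjustment is stricter with so few changed genes, so these shares do not give the recovery in the data. Alternatives were other filters, probe set rules, normalizations, variance models, a replicate block, a poly-A control covariate and leaving out each array. Python 3.11.15 with pandas 2.3.3 scanned the RefSeq promoters, and matplotlib 3.10.9 drew the plots. Protein sequences were not used here.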

Additional observations from a re-analysis of the deposited data

How the results depend on the processing

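Both comparisons rest on 3 arrays per group. In simulated data, which had far fewer called genes than these data, small changes were recovered only in part. Leaving out each array in turn gave 10 to 12 members higher and 6 to 7 lower at 40 °C, 10 to 14 higher and 9 to 10 lower with the inhibitor, and 20 to 22 whose change differed between the experiments. With the poly-A control signal as a covariate the counts were 6 higher and 5 lower at 40 °C, 0 higher and 1 lower with the inhibitor, and 10 that differed between the experiments. In that limma fit 5 of the 43 members were higher and 5 lower with the inhibitor at an unadjusted p under 0.05, and 65 genes were called higher and 208 lower among all genes tested. With the mean of all probe sets of a gene, 7 members were higher with the inhibitor. All other settings kept the 5 counts within 1.5 times of those reported, although which members were called could differ. Arrays with the same replicate number did not deviate together (r = -0.13, -0.10 and 0.23 at 40 °C and 37 °C, and -0.19, -0.60 and -0.15 in the inhibitor experiment), so the numbers were not taken as pairs. With the replicate number as a block, 11 members were higher and 6 lower at 40 °C, 8 higher and 9 lower with the inhibitor, and 20 differed between the experiments.

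Some of the differences that turned sign were near 0, but others had been called. The called ones were SLC38A10 at 40 °C (-0.17) and SLC1A3 (0.34) and SLC43A3 (0.19) with the inhibitor, which turned as the mean of their probe sets. At 40 °C, SLC38A2 was 0.11 as the mean of its probe sets and -0.0183 to 0.0033 on leaving out an array, SLC38A10 was 0.35 as the mean of its probe sets, and with the control covariate SLC6A9 was 0.14 and SLC43A2 0.0893. With the inhibitor, as the mean of probe sets SLC1A3 was -0.0487 and SLC43A3 -0.13. SLC38A9 was -0.0589 with array weights, -0.19 with the control covariate and -0.01 to 0.095 on leaving out an array, and SLC6A9 was -0.09 to 0.14 on leaving out an array. SLC7A5 at 40 °C was not called as the mean of its probe sets (0.08, adjusted p = 0.218). The cause of these differences was not tested.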
